A study of Mus musculus with 2 samples.

Results

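Haemoglobin genes and the genes that drive or switch them were followed in newborn mouse adrenal gland. The set held 10 of the 55536 annotated genes, taken by symbol: the adult alpha-like globins Hba-a1 and Hba-a2, the adult beta-like globins Hbb-bs and Hbb-bt, the embryonic globins Hba-x, Hbb-y and Hbb-bh1, the haem enzyme Alas2, and the regulators Klf1 and Bcl11a. All 10 were found in the gene tables and in the alignment-free transcript tables. The series held 1 group of 2 biological replicates and no second condition. Each library came from the adrenal gland of a male of 4 days of the strain B6CASTF1/J, an F1 hybrid that carries a C57BL/6J and a CAST/EiJ allele of each autosomal gene, and was made from 300 ng of total RNA with ERCC spike-in transcripts. The biosample labels differ, although a description shared by the samples repeats a male number and both carry 1 donor label, so the libraries were treated as 2 animals. With 2 libraries of 1 group the data allow levels, ratios within a library and the ratio of replicate 2 over replicate 1, all as descriptions with no test.

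Haemoglobin joins alpha and beta chains, each holding a haem group, and is made in the red cell lineage. In mice the embryonic chains are made by primitive red cells of the yolk sac, and the adult chains by definitive red cells of the fetal liver, spleen and bone marrow. Klf1 activates adult beta globin through CACCC sequences, and Bcl11a represses embryonic globin genes in definitive red cells. The adrenal gland is not known as a main site of blood formation.

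The adult globins came as pairs with near-identical coding sequences, and the 1 coding base that tells each pair apart is shown. Their untranslated ends, described below, differ more. The coding sequences of Hba-a1 and Hba-a2 have 429 bases each and differ at 1 base, C381T, counted from the first base of the start codon, which leaves the amino acid unchanged. Those of Hbb-bs and Hbb-bt have 444 bases and also differ at 1 base, C417T, again silent. Both differences lie in exon 3. The 41 bases around each are given 5′ to 3′ on the coding strand from the GENCODE M21 transcripts (GRCm38), with the differing base in capitals.
Hba-a1, chr11:32284323-32284363, plus strand: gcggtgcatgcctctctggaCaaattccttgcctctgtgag
Hba-a2, chr11:32297140-32297180, plus strand: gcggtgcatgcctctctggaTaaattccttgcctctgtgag
Hbb-bs, chr7:103826672-103826712, minus strand: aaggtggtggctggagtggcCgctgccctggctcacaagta
Hbb-bt, chr7:103812663-103812703, minus strand: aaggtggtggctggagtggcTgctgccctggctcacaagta

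Outside the coding sequence the pairs differ in their untranslated ends. Hba-a1-201 is annotated with 196 bases before its start codon and 74 after its stop codon, against 35 and 90 bases for Hba-a2-201. Of all 100-base windows, 339 of the 600 of Hba-a1-201 (56.5%) and 339 of the 455 of Hba-a2-201 (74.5%) occur in the other transcript. In the beta pair 331 of the 529 windows of Hbb-bs-201 (62.6%) and 331 of the 604 of Hbb-bt-201 (54.8%) do. A fragment from such a window cannot be placed in 1 gene by its sequence.

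The bases upstream of the RefSeq starts were compared for short sequence matches. All members but Hbb-bh1 had an entry in the RefSeq promoter table (GRCm38.p6), and the 150 bases before each start were searched on both strands for the CACCC box, the CCAAT box, the TATAA box and the GATAAG site. Each of the 4 adult globins held the CACCC box, the CCAAT box and the TATAA box, a combination found in 360 of 32851 promoters (1.10%). Singly, CACCC occurred in 37.4% of promoters, CCAAT in 24.5%, TATAA in 14.2% and GATAAG in 3.75%. The windows of Hba-a1 and Hba-x lie wholly in annotated exons. Boxes in the exonic part of a window, such as the CACCC of Hbb-bs and the TATAA of Hbb-bt, are not printed. Shown, for the globin genes that have them, are the stretches outside every annotated exon of the gene, with the CACCC box, the CCAAT box and the TATAA box of either strand in capitals.
Hba-a2, chr11:32296342-32296488, plus strand: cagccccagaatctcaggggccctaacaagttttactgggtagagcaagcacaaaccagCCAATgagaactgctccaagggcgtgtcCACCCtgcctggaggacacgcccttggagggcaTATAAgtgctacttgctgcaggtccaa
Hbb-bs, chr7:103827929-103828011, minus strand: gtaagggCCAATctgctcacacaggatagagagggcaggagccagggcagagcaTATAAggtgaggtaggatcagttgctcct
Hbb-bt, chr7:103813997-103814073, minus strand: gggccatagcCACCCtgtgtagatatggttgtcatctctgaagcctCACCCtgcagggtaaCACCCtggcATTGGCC
Hbb-y, chr7:103853217-103853357, minus strand: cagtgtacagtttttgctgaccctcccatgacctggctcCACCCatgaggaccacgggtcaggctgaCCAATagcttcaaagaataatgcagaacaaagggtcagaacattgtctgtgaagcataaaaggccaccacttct

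The alpha pair shared its upstream sequence: the windows of Hba-a1 and Hba-a2 were identical over the 147 bases compared once shifted by 3 bases. The beta pair did not, with 43 mismatches in 149 bases compared without gaps. Hbb-bs had 1 CACCC, which starts 90 bases before the start site, whereas Hbb-bt had 3, which start 140, 104 and 89 bases before it. The closing capitals of the Hbb-bt stretch begin a CCAAT that runs past it. Among the embryonic genes, the window of Hba-x held CACCC and TATAA without CCAAT, and that of Hbb-y held CACCC and CCAAT without TATAA. The Klf1 window held the CACCC box, the CCAAT box and the GATAAG site, that of Alas2 3 adjacent CACCC matches on the opposite strand, and that of Bcl11a 1 CACCC. A match is only a run of letters.

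The libraries held 30292851 (replicate 2) and 32231301 (replicate 1) expected counts on annotated genes. A limit of 3 counts, chosen here for a count of 0, makes 0.0990 and 0.0931 CPM (counts scaled to the library). Intervals and limits here cover counting error only. Markers of the labelled tissue were present, with 7 of 7 cortical and 6 of 6 chromaffin genes at a mean of 1 TPM, an abundance scaled by transcript length, or more. Replicate 2 stood apart from replicate 1 in genes of other tissues. The 10 liver genes summed to 6047 TPM in replicate 2 and 234 TPM in replicate 1, with a median replicate ratio of 26.1-fold. The 7 granulocyte genes summed to 185 TPM in replicate 2 and 24.7 in replicate 1, with a median of 6.66-fold. The 8 skeletal muscle genes summed to 1207 TPM in replicate 2 and 655 in replicate 1, with a median of 1.73-fold. The 7 cortical genes had lower sums in replicate 2, 6581 TPM against 8560 TPM in replicate 1.

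Adult globin messenger RNA was among the most abundant of the gland, embryonic globin messenger RNA was not detected, and the regulators were scarce. Of the 10 members, 6 reached a mean of 1 TPM or more, Klf1 fell just short of it, and the embryonic globins had 0 counts. The 4 adult globins together took 0.231% of the expected counts in replicate 2 and 0.132% in replicate 1. Unless stated otherwise, levels are from the alignment-based gene tables, whose TPM are comparable between genes.

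**Figure D1:**
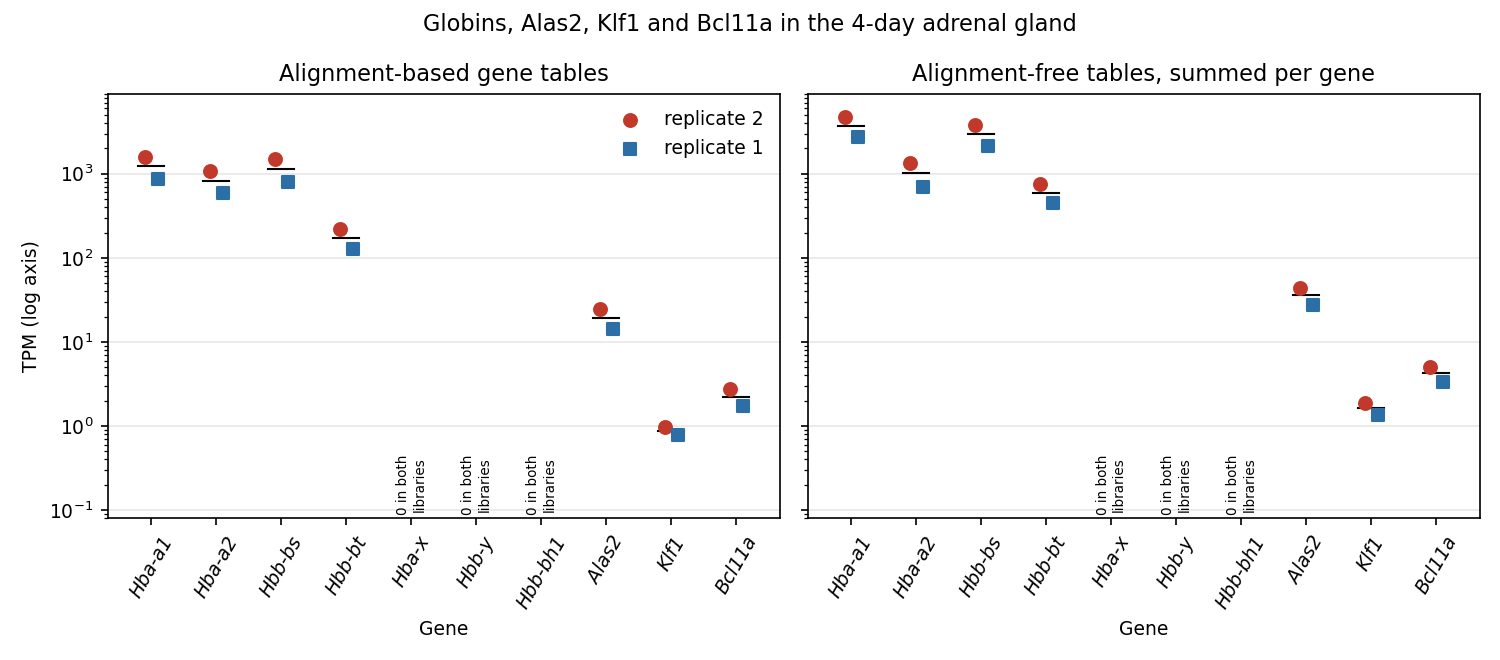
TPM of each of the 10 genes (horizontal axis) on a log axis, in the alignment-based gene tables (left panel) and the alignment-free tables (right panel), with replicate 2 as circles, replicate 1 as squares and a bar at their mean. In the left panel the adult globins lie between 128 and 1594 TPM, Alas2 between 14.2 and 24.8 TPM, Bcl11a and Klf1 below 3 TPM, and the 3 embryonic globins at 0 in both libraries.

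Hba-a1 (ENSMUSG00000069919.7, chromosome 11, 32283511 to 32284465, plus strand, mm10) was the most abundant globin. Its level was 1594 TPM in replicate 2, against 871 in replicate 1, with a mean of 1233 ± 511 TPM (SD, n = 2), and ranked 13th in replicate 2 and 23rd in replicate 1 among 22028 protein-coding genes. Its copy Hba-a2 (ENSMUSG00000069917.7, 32296489 to 32297298) stood at 1075 TPM in replicate 2, against 583 in replicate 1, and ranked 22nd in replicate 2 and 40th in replicate 1. In the alignment-free tables Hba-a1 ranked 6th and 15th, and Hba-a2 41st and 125th, in replicates 2 and 1. Hba-a1 was above Hba-a2 within each library. In the gene tables the level of Hba-a2 in replicate 2 was above that of Hba-a1 in replicate 1.

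In the gene tables both alpha genes were higher in replicate 2 by nearly the same factor. Hba-a1 had 28174 counts in replicate 2 and 17095 in replicate 1, a ratio of 1.72 after scaling of library size (exact binomial 95% interval 1.68 to 1.75). Hba-a2 had 14611 counts in replicate 2 and 8783 in replicate 1, a ratio of 1.73 (1.69 to 1.78). The intervals of the pair overlap. In the alignment-free tables the ratio of Hba-a1 was 1.67 and that of Hba-a2 1.94, so the gap was wider there. In a bulk sample, more red cells and more globin RNA per red cell cannot be told apart.

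Hbb-bs (ENSMUSG00000052305.6, chromosome 7, 103826534 to 103828096, minus strand) was the main beta globin. Its level was 1478 TPM in replicate 2, against 802 in replicate 1, with a mean of 1140 ± 479 TPM (SD, n = 2), next to the level of Hba-a1 in each library. Hbb-bt (ENSMUSG00000073940.3, 103812524 to 103813996) was the least abundant adult globin, with 219 TPM in replicate 2, against 128 in replicate 1. It ranked 208th in replicate 2 and 382nd in replicate 1 among protein-coding genes, where Hbb-bs ranked 15th and 27th.

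The beta genes were also higher in replicate 2. Hbb-bs had 23200 and 13944 counts in replicates 2 and 1, a ratio of 1.73 (95% interval 1.70 to 1.77), and Hbb-bt had 3952 and 2569 counts in replicates 2 and 1, a ratio of 1.60 (1.52 to 1.68). The interval of Hbb-bt lay below those of Hbb-bs and Hba-a2 and touched that of Hba-a1. In the alignment-free tables the ratio of Hbb-bt was 1.65 and that of Hbb-bs 1.72, so the gap was smaller there.

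By mean TPM the order was Hba-a1, Hbb-bs, Hba-a2, Hbb-bt, Alas2, Bcl11a and Klf1, with the embryonic genes at 0. The levels of the first 3 overlapped between libraries, but their order was the same within each library and in both kinds of table. In the gene tables Hbb-bt was below Hba-a2, Alas2 below Hbb-bt and Bcl11a below Alas2 without overlap between libraries. So was Klf1 below Bcl11a, with 0.96 and 0.78 TPM against 2.76 and 1.71 TPM in replicates 2 and 1. In the alignment-free tables Hbb-bt in replicate 2, at 747 TPM, was above Hba-a2 in replicate 1, at 690 TPM.

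The balance of alpha over beta chains barely moved between libraries that differed in the amount of globin. Summed adult alpha TPM over summed adult beta TPM was 1.57 in replicate 2 and 1.56 in replicate 1, a mean log2 ratio of 0.65 ± 0.0058 (SD, n = 2). Counts without scaling by length gave 1.58 in replicate 2 and 1.57 in replicate 1. In the alignment-free tables the TPM ratio was 1.34 in replicate 2 and 1.32 in replicate 1, lower than in the gene tables, while their counts gave 1.53 in both. The summed counts of each pair were nearly equal in the 2 kinds of table, with 42785 aligned and 43141 alignment-free alpha counts and 27152 and 28212 beta counts in replicate 2.

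The division within the alpha pair depended on the table. In the gene tables Hba-a1 took 59.7% of alpha TPM in replicate 2 and 59.9% in replicate 1. In the alignment-free tables it took 77.5% in replicate 2 and 79.9% in replicate 1. The ratio of Hba-a1 over Hba-a2 was accordingly 1.48 and 1.49 in the gene tables and 3.44 and 3.97 in the alignment-free tables, in replicates 2 and 1. The tables nearly matched in the summed counts of the pair, given above. Its summed TPM did not match, at 2670 in the gene tables and 6024 in the alignment-free tables in replicate 2. The division differed between the tables, and Hba-a1 was above Hba-a2 in all of them.

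The annotated models of the alpha pair differ at their ends. The GENCODE model of Hba-a1-201 starts 161 bases upstream of the RefSeq start and that of Hba-a2-201 only 3 bases upstream, although the sequence upstream of both is the same. How far the models set the division was not tested. The posterior SD of the deposited count was the same for both alpha genes, 171 counts in replicate 2 and 141 in replicate 1; this SD treats the gene models as true.

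The beta pair was divided more alike by the tables. Hbb-bt took 12.9% of beta TPM in replicate 2 and 13.8% in replicate 1 in the gene tables, and 16.6% in replicate 2 and 17.1% in replicate 1 in the alignment-free tables. Hbb-bs over Hbb-bt was 6.75 and 6.24 in the gene tables, and 5.04 and 4.85 in the alignment-free tables, in replicates 2 and 1 each. Hbb-bs was the larger member in each of them. Counting was done against the C57BL/6J reference, and how reads from CAST/EiJ alleles were assigned was not tested.

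**Figure D2:**
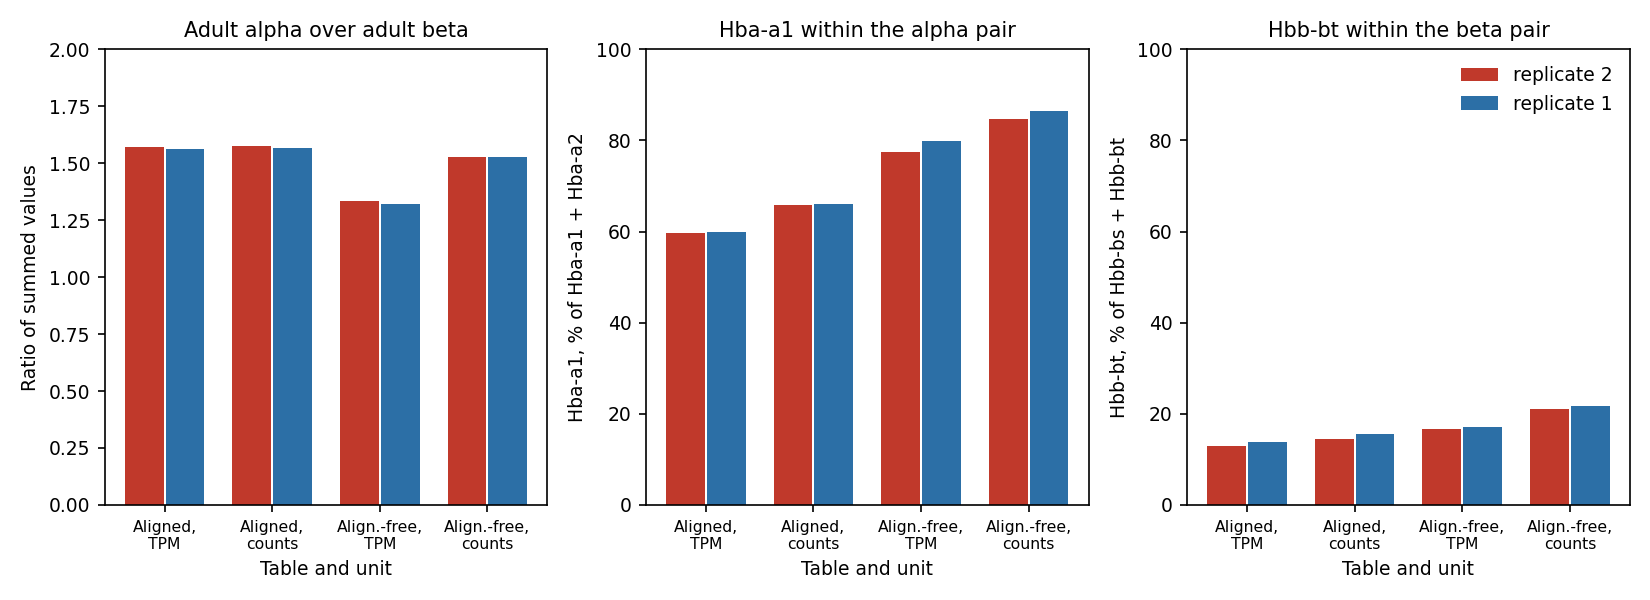
Adult alpha over adult beta (left, ratio of summed values), Hba-a1 as a percent of the alpha pair (middle) and Hbb-bt as a percent of the beta pair (right), each from TPM and from counts of the alignment-based and alignment-free tables, with replicate 2 left of replicate 1. The bars of the 2 libraries nearly match in each table, while Hba-a1 takes 59.7% and 59.9% of alpha TPM in the aligned tables and 77.5% and 79.9% in the alignment-free ones.

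TPM of all 7 detected members were higher in the alignment-free tables, by factors that differed between genes. Hba-a1 reached 4667 TPM there in replicate 2, against 2739 in replicate 1, 2.93 and 3.14 times its gene-table values, and Hbb-bs had 3762 and 2150 TPM in replicates 2 and 1, 2.54 and 2.68 times. The multiple was smallest for Hba-a2, at 1.26 and 1.18, and largest for Hbb-bt, at 3.41 and 3.45, in replicates 2 and 1. Alas2, Klf1 and Bcl11a had multiples between 1.76 and 1.98. With the gene-table TPM rescaled to protein-coding genes alone, Hba-a1 averaged 3223, Hbb-bs 2980, Hba-a2 2167 and Hbb-bt 455 TPM. The alignment-free means, not rescaled, were 3703, 2956, 1024 and 595 TPM, so small gaps such as that of Hbb-bs have no readable direction. Of protein-coding TPM, the 4 adult globins took 1.11% in the gene tables and 1.38% in the alignment-free tables of replicate 2. In replicate 1 these shares were 0.652% and 0.802%. The tables also divide by different effective lengths, for Hba-a2-201, of 554 bases, 455 in the gene tables and 232 and 230 in the alignment-free tables of replicates 2 and 1, and the part of this in the multiples was not tested.

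Embryonic globin RNA was not detectable at this depth. Hba-x (ENSMUSG00000055609.8, chromosome 11, 32276400 to 32278116), Hbb-y (ENSMUSG00000052187.4, chromosome 7, 103851749 to 103853216) and Hbb-bh1 (ENSMUSG00000052217.6, chromosome 7, 103841637 to 103843164) had 0 counts in both libraries and both kinds of table. These genes code for the zeta-like, epsilon-like and beta-h1 chains of primitive red cells. A count of 0 allows Hba-x a share of up to 0.00701% of the 42785 alpha-like counts in replicate 2 and 0.0116% of the 25878 in replicate 1. For the embryonic beta genes the limits were 0.0110% of 27152 beta-like counts in replicate 2 and 0.0182% of 16513 in replicate 1.

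The 2 globin clusters showed RNA from their adult genes with little or none from the genes between and around them. On chromosome 7 the genes lie on the minus strand, with Hbb-y and Hbb-bh1 upstream of Hbb-bs and Hbb-bt. The protein-coding gene Hbb-bh2 and the pseudogenes Hbb-bh0 and Hbb-bh3 of that cluster had 0 counts in both libraries. On chromosome 11, Hbq1b, a theta-like globin that lies between Hba-a1 and Hba-a2, had 19 counts in replicate 2 and 2.69 in replicate 1 (1.37 and 0.18 TPM), a ratio of 5.78 with a counting interval from 1.94 to 34.8. Hbq1b had too few counts to be among the genes kept for replicate ratios. Its copy Hbq1a had 0 counts in replicate 2 and 1.31 in replicate 1.

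Alas2 (ENSMUSG00000025270.13, chromosome X, 150547375 to 150570638, plus strand), the red cell enzyme for the first step of haem synthesis, was well detected. It had 1159 counts and 24.8 TPM in replicate 2, and 768 counts and 14.2 TPM in replicate 1, a mean of 19.5 ± 7.52 TPM (SD, n = 2). Its replicate ratio of 1.57 (95% interval 1.43 to 1.72) was close to those of the globins, and Hba-a1 stood at 64.3 and 61.6 times the TPM of Alas2 in replicates 2 and 1. Alas1, the form of the enzyme used in other cells and needed for the haem of steroid-making cytochromes, was above Alas2 in both libraries, with 253 TPM in replicate 2, against 262 in replicate 1. Alas1 over Alas2 was 10.2 in replicate 2 and 18.5 in replicate 1.

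The transcripts of Alas2 differed in share between the libraries. Alas2-201, the main coding form, took 52.9% of the gene's TPM in replicate 2 and 65.5% in replicate 1, and Alas2-202, also coding, took 24.5% in replicate 2 and 15.8% in replicate 1. Alas2-202 had 326 counts in replicate 2 and 133 in replicate 1, while Alas2-201 had 758 in replicate 2 and 595 in replicate 1. The alignment-free tables gave the same direction with a wider gap, at 27.8% in replicate 2 and 7.77% in replicate 1 for Alas2-202. Alas2 overlaps Apex2, a DNA repair gene on the opposite strand, which had 551 counts in replicate 2 and 555 in replicate 1. No source used here states whether strand was used in counting, and reads of the overlap are uncertain.

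Klf1 and Bcl11a, an activator of adult beta globin and a repressor of embryonic globin genes, were both scarce. Klf1 (ENSMUSG00000054191.8, chromosome 8, 84901928 to 84905291, plus strand) had 41 counts in replicate 2 and 37 in replicate 1, or 0.87 ± 0.127 TPM (SD, n = 2). Its replicate ratio of 1.15 had an interval from 0.722 to 1.85, which holds both 1 and the ratios of the adult globins. At this depth Klf1 can be set neither apart from them nor beside them.

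Bcl11a (ENSMUSG00000000861.15, chromosome 11, 24078056 to 24174123, plus strand) had 320 counts in replicate 2 and 246 in replicate 1, or 2.23 ± 0.742 TPM (SD, n = 2). Its ratio of 1.35 (95% interval 1.14 to 1.61) lay below the intervals of Hba-a1, Hba-a2 and Hbb-bs. Bcl11a over Klf1 was 2.88 in replicate 2 and 2.19 in replicate 1 by TPM. Bcl11a is also known in neurons and B cells. The B cell markers Cd79a and Cd79b had 1.15 and 1.86 TPM in replicate 2 and 0.36 and 0.55 TPM in replicate 1, and the 6 markers of that list summed to 4.42 and 1.99 TPM in replicates 2 and 1; their part in the Bcl11a level was not tested.

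Much of the RNA of Bcl11a came from forms other than the longest coding one. Bcl11a-201 took 44.2% of its TPM in replicate 2 and 36.2% in replicate 1, Bcl11a-202 took 21.2% and 35.5%, and the retained-intron form Bcl11a-205 took 19.1% and 17.6%, each in replicates 2 and 1. The alignment-free tables gave 36.5% in replicate 2 and 40.6% in replicate 1 for Bcl11a-201, the opposite direction between libraries. Bcl11a-202 had the same direction in both tables, with 23.2% in replicate 2 and 30.6% in replicate 1 in the alignment-free ones, and so had Bcl11a-205, with 17.9% and 15.2% there. Other retained-intron forms had smaller shares in the gene tables, 5.40% and 3.58% of the TPM of Alas2, 3.98% and 3.69% of that of Hba-a1 and 1.19% and 1.30% of that of Hbb-bs, each in replicates 2 and 1. In the alignment-free tables those of Hba-a1 and Hbb-bs were at 0. The antisense genes annotated across Bcl11a had 0 counts.

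**Figure D3:**
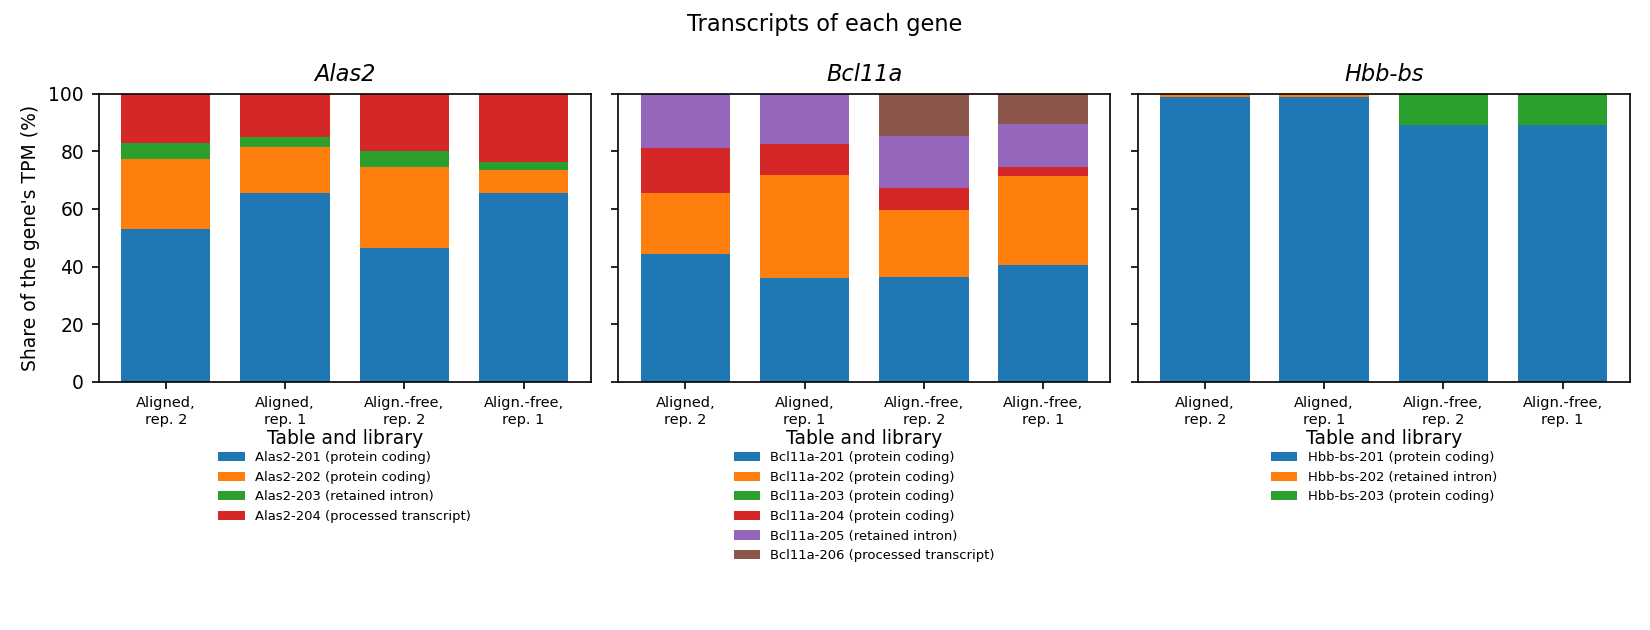
Share of each gene's TPM by transcript (percent) for Alas2, Bcl11a and Hbb-bs, in the aligned and alignment-free tables, with replicate 2 left of replicate 1 in each. Alas2-202 takes 24.5% and 15.8% of Alas2 in the aligned tables, and Hbb-bs-201 takes over 89% of Hbb-bs in every column.

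All 7 members with enough counts for a ratio were higher in replicate 2, and 5 of them by over 1.5-fold: the 4 adult globins and Alas2. Of the 18160 genes kept, 8.69% were over 1.5-fold higher in replicate 2 and 2.93% over 1.5-fold lower, and 50.0% were higher by any amount. Among kept genes at a mean of 1 TPM or more 5.55% were over 1.5-fold higher, and in the alignment-free tables, where the same count of members was 5, 9.75% were. The median log2 ratio was 0.68 for the 7 members and 0.00 for all kept genes, whose 10th and 90th percentiles were -0.31 and 0.53. With 1 library per animal this is a difference between 2 libraries.

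Other genes used in red cells, some of them also used in other cells, were counted by role. Beside them stand the 8.69% of all kept genes over 1.5-fold higher and 2.93% over 1.5-fold lower. Of 15 genes of the red cell membrane and skeleton, 10 were over 1.5-fold higher in replicate 2, 1 was over 1.5-fold lower and 12 were higher by any amount, with a median log2 ratio of 0.71. Slc4a1, the anion exchanger of the red cell membrane, stood at 26.8 TPM in replicate 2, against 11.5 in replicate 1, a ratio of 2.05 (95% interval 1.91 to 2.21). Tmod1, a cap of actin filaments in the membrane skeleton, and Rhd, a carrier of Rh blood group antigens, had ratios of 2.04 and 2.07. The gene over 1.5-fold lower was Sptb, beta spectrin and the highest of the list, with 25.5 TPM in replicate 2 and 36.7 in replicate 1 and a ratio of 0.662 (0.641 to 0.683). Epb41, a protein that ties the skeleton to the membrane and the second highest, had a ratio of 1.20.

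The late red cell list, with enzymes and other late proteins, had 4 of 11 kept genes over 1.5-fold higher, and its median log2 ratio was 0.46. Mfsd2b, an exporter of sphingosine phosphate, had 1.84 and 0.65 TPM in replicates 2 and 1, a ratio of 2.70. Prdx2, a peroxide-removing enzyme also made widely outside red cells, led the list by level with 219 TPM in replicate 2 and 229 in replicate 1 and was slightly lower in replicate 2. Blvrb and Car2 had ratios of 1.12 and 1.25. Of 14 listed genes, Ahsp was not matched.

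Among 8 transcription factors of the red cell lineage, 3 were over 1.5-fold higher in replicate 2, and the median log2 ratio was 0.23. Nfe2, which binds the globin control regions, had 90 counts in replicate 2 and 33 in replicate 1, a ratio of 2.81 (95% interval 1.89 to 4.37). The highest of the list, Ldb1, Klf3 and Lmo2, which are also used outside red cells, had ratios of 1.12, 0.982 and 1.16.

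Genes of haem synthesis and iron uptake other than Alas2 did not follow it. None of the 14 was over 1.5-fold apart in either direction, 5 were higher in replicate 2, and the median log2 ratio was -0.03. Fech, which inserts iron into haem, had 53.4 and 47.0 TPM in replicates 2 and 1, and Urod, an earlier enzyme of the pathway, had 50.0 and 48.0 TPM in replicates 2 and 1. The list summed to 572 TPM in replicate 2 and 556 TPM in replicate 1. It includes Alas1, the form used in other cells, and Hmox1, which breaks haem down. How much of its RNA came from red cells was not tested. Across the 4 lists together, 17 of 48 kept genes were over 1.5-fold higher, against 8.69% of all kept genes. Over 1.5-fold lower was 1 of the 48, against 2.93% of all kept genes. The 5 genes over 2-fold higher were Slc4a1, Tmod1, Rhd, Mfsd2b and Nfe2, against 3.6% of all kept genes over 2-fold higher.

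Factors that act with Bcl11a or beside it in globin switching were mostly detected, 20 of 22 at a mean of 1 TPM or more, and alike between libraries. Of the 22, 1 was over 1.5-fold higher in replicate 2, against 8.69% of all kept genes. This was Lin28b, with 22 counts in replicate 2 and 12 in replicate 1, named here after its values were seen. The counting interval of its ratio holds 1 (0.905 to 4.23). The list was led by Chd4 and Mbd2, parts of a chromatin-remodelling repressor complex, at 77.5 ± 4.25 and 61.1 ± 1.40 TPM, and by Nfia, a nuclear factor I gene, at 76.2 ± 4.03 TPM (SD, n = 2). Globins of other tissues were scarce beside those of red cells. Cygb, cytoglobin of fibroblast-like cells, had 14.1 and 11.5 TPM in replicates 2 and 1, Ngb, neuroglobin, had 0.41 and 0.48 TPM in replicates 2 and 1, and Mb, the oxygen store of muscle, had 5.78 and 2.05 TPM in replicates 2 and 1, a ratio of 2.70.

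**Figure D4:**
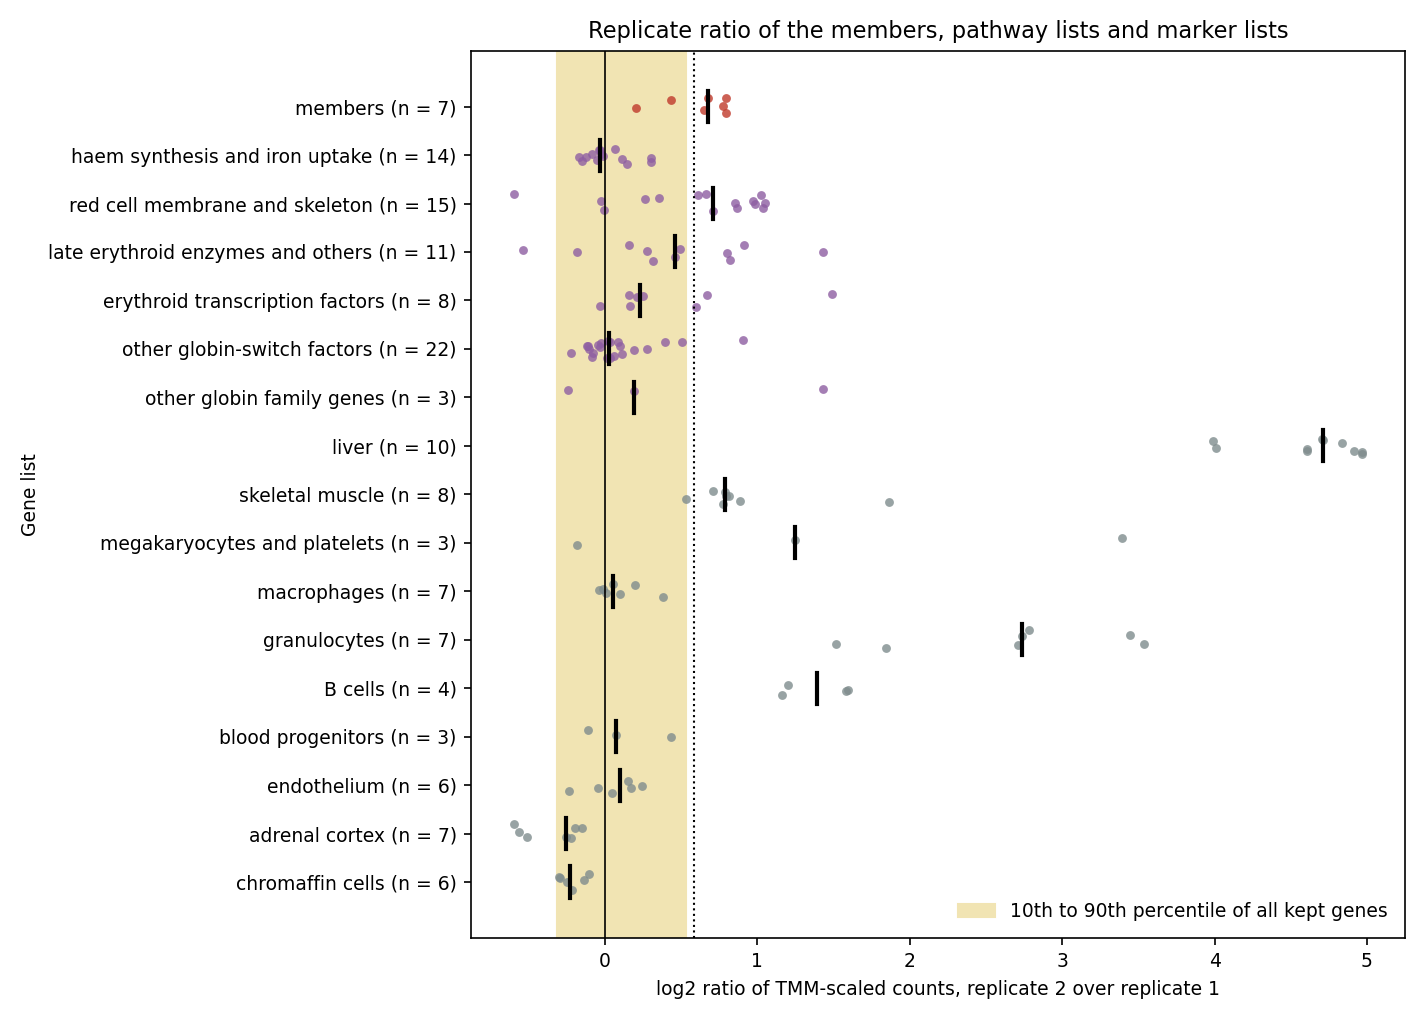
log2 ratio of scaled counts, replicate 2 over replicate 1, for each gene of the set (top row), of each pathway list and of each marker list, with a black bar at each list's median, a dotted line at 1.5-fold and a shaded band from the 10th to the 90th percentile of all 18160 kept genes. The red cell membrane list has its median at 0.71, haem synthesis at -0.03, and the liver markers lie furthest right with a median of 4.71.

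Markers of granulocytes, B cells, liver and skeletal muscle were also higher in replicate 2, and those of other blood cells were not all so. The share of all kept genes over 1.5-fold higher was 8.69%. All 7 granulocyte genes were over 1.5-fold higher in replicate 2, among them S100a9 with 67.7 and 9.59 TPM and S100a8 with 55.0 and 7.47 TPM in replicates 2 and 1. All 4 kept genes of the B cell list were, with a median ratio of 2.63-fold. Of 10 liver genes all 10 were, with Alb, albumin, at 2319 TPM in replicate 2 and 76.3 in replicate 1, and Ahsg, fetuin, at a ratio of 30.1. Of 8 skeletal muscle genes 7 were, led by Acta1 and Mylpf, with ratios of 1.64 and 1.86. Of the platelet list 2 of 3 kept genes were, Ppbp and Itga2b, while Pf4, the highest, had 16.0 TPM in replicate 2 and 17.2 in replicate 1. Itga2b had the other direction in the alignment-free tables, with 3.35 TPM in replicate 2 and 4.07 in replicate 1.

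Macrophage, endothelial and blood progenitor lists had no kept gene over 1.5-fold apart, with median log2 ratios of 0.05, 0.10 and 0.07. Their leading genes had ratios of 1.30 for Lyz2 and 1.04 for C1qb of macrophages, 1.18 for Egfl7 and 0.972 for Plvap of endothelium, and 1.05 for Cd34 and 0.929 for Gata2 of progenitors. No T cell gene was kept, with Trbc2 at 1.01 and 0.25 TPM and Cd3d at 0.31 and 0.16 TPM in replicates 2 and 1. Of the gland's own cells, Hsd3b1 and Cyp21a1 of the cortex had ratios of 0.677 and 0.662, and Chga and Chgb of chromaffin cells 0.843 and 0.864. The ratios of the globins lay between these and the granulocyte ratios. The part of the liver, granulocyte, B cell, platelet and muscle genes in the replicate ratio of the globins was not tested.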

How the data were processed

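Total RNA was sequenced by the authors from 2 libraries of 1 group, with directional libraries and ERCC spike-ins per the labels' protocols. The authors deposited, for each library, a gene and a transcript table derived from alignments and a transcript table made without alignment, with mm10 coordinates per the labels. Expected counts, as the authors deposited them, share reads among genes and need not be whole. The deposited TPM divide counts by effective length. The percent of a gene's TPM per transcript is in the deposited alignment-based tables and was computed here for the alignment-free ones. No source used here names the programs.

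Symbols and coordinates came from GENCODE M21. Spike-ins, which took 1.06% of counts in each library, and 26248 rows without a gene, holding 2 and 3 counts in replicates 2 and 1, were left out. The genes without an alignment-free transcript numbered 86, none of them a member. Alignment-free values were summed per gene. Replicate ratios are replicate 2 over replicate 1 of rounded expected counts scaled by TMM (edgeR 4.0.16, R 4.3.3) with a prior count of 0.5, for the 18160 genes kept by filterByExpr and for Hbq1b, which was not kept. Intervals are exact 95% binomial (Clopper-Pearson) intervals of the scaled count ratio, and no test between conditions exists. They were run on simulated counts with counting error alone, which checks the computation only. That simulation held no sharing of reads between near-identical copies. The biological coefficient of variation from edgeR was 0.234. Sequence comparison used Biopython 1.88 and tables Python 3.11.15. Alternatives were DESeq2 1.42.0 size factors, total and spike-in scaling, a prior count of 2, no filter, the alignment-free tables, deposited TPM ratios, a fold limit of 2, and each library alone. The genes named were all members, the 3 highest of each pathway list, list genes over 2-fold apart at a mean of 1 TPM, the other globins and the highest markers. The members and lists were chosen with earlier results of these data known.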

Additional observations from a re-analysis of the deposited data

How the results depend on the processing

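Across TMM, DESeq2, total-count and spike-in scaling, a prior count of 2, no filter and the alignment-free counts, 5 of the 7 members were over 1.5-fold higher in replicate 2, and 6 by deposited TPM, where Bcl11a also passed at 1.61. Of all kept genes, 11.8% passed by deposited TPM. Under the other settings with the filter, 8.29% to 9.75% did. TPM moved the median of all genes by 0.10 on the log2 scale, and the other scalings by at most 0.03. At a fold limit of 2 the members past it numbered 0 and the red cell genes 5, against 17 at 1.5-fold and 15 to 19 under the other alternatives. Past that limit were 3.6% of all kept genes. Without the filter 21.7% of all genes were over 1.5-fold higher. The log2 ratio of a member over all alternatives ranged from 0.19 to 0.41 for Klf1, 0.42 to 0.69 for Bcl11a and 0.63 to 0.81 for Alas2, and from 0.67 to 0.95 over the adult globins, with no change of sign.

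The log2 ratio of alpha over beta was 0.65, and 0.41 by alignment-free TPM. That of Hba-a1 over Hba-a2 was 0.57, against 1.89 by alignment-free TPM and 0.95 by counts, and that of Hbb-bs over Hbb-bt was 2.70, against 2.30 and 2.50. The cause was not tested. With 1 library left out the 3 ratios ranged from 0.64 to 0.65, from 0.57 to 0.58 and from 2.64 to 2.75. No paired analysis was possible because the 2 libraries belong to 1 group. Depth limits Klf1, Hbq1b and the embryonic globins, and the number of libraries limits every replicate ratio.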

Other observations

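Some further genes of the red cell lists were chosen after their values were seen, all with count ratios above 1. Of the 48 kept genes of the 4 lists, 33 were higher in replicate 2 by any amount. Ermap, a red cell membrane protein, had 2.46 and 1.33 TPM in replicates 2 and 1. Gata1, the master factor of the red cell lineage, was as scarce as Klf1, with 39 counts in replicate 2 and 34 in replicate 1, and the interval of its ratio of 1.19 (exact binomial 95%, 0.735 to 1.95) holds 1. Its alignment-free TPM had the other direction, 1.18 in replicate 2 and 1.74 in replicate 1. Tal1, another factor of blood cells, had 264 and 181 counts in replicates 2 and 1, a ratio of 1.52 (1.25 to 1.85).

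Hemgn and Trim10, genes of late red cell maturation, had ratios of 1.75 and 1.77. Bpgm, which makes the 2,3-bisphosphoglycerate that lowers the oxygen affinity of haemoglobin, stood at 15.3 TPM in replicate 2, against 13.0 in replicate 1, a ratio of 1.21.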
